A study of Mus musculus with 64 samples.

Results

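The 8 genes described here encode transcription factors that build the pancreas from the foregut or specify its cell types: Pdx1, Sox9, Hnf4a, Gata4, Gata6, Foxa1, Foxa2 and Insm1. They were taken by symbol from the 39017 genes of the tumor cell count table, and all 8 were found. The table covers 64 polyA RNA-seq libraries from 8 mouse pancreatic tumor lines of C57BL/6 mixed background. These are clones E, H and V (group 1 of the study's metabolic classes), clones K, M, N and T (group 2), and KPC1, which belongs to neither group. For each line there were 4 mono-culture libraries and 4 of cells sorted on tumor-specific GFP after 48 h of culture with fibroblasts. Per the study, the 7 clones are each 1 subclone of a polyclonal line grown from a tumor of the KPC model. All groups thus share the KPC alleles, a mutant Trp53 allele among them, switched on by a Cre recombinase under the promoter of Pdx1, which is also a member here. Sorting is stated for the co-cultures alone, so passage through the sorter and contact with fibroblasts cannot be told apart. No label calls the 4 replicates separate cultures. P-values of the tests within lines and of differences between lines measure only the spread between these libraries. Those of the response over the 8 lines and of the group comparison measure the spread between sums of a line or clone.

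Pdx1 is the homeodomain factor without which no pancreas forms, and in the adult it is kept at a high level mainly in beta cells. Foxa1 and Foxa2 are pioneer factors that open chromatin for the other endoderm regulators. Gata4 and Gata6 are zinc-finger factors that share the early work of pancreas specification, and GATA6 is widely used to mark the classical subtype of human pancreatic cancer. Sox9 maintains progenitors and is kept in ducts. Hnf4a is a nuclear receptor of the liver, gut and islets and is another gene associated with classical tumors. Insm1 is a zinc-finger repressor that promotes endocrine and neuroendocrine differentiation.

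The DNA ahead of Hnf4a and Pdx1 is shown because these were the pair that fell in co-culture. RefSeq promoter windows on GRCm38.p6 (250 bases before to 50 after a start) were found for 4 of the 8 members, and each printed window ends before the first annotated transcript start inside it, on the plus strand, 5′ to 3′. Hnf4a (chr2:163506808-163572910, plus strand) has an upstream start and, within its body, a downstream start. Capitals mark a match to a searched motif.
Hnf4a upstream start, chr2:163506607-163506807: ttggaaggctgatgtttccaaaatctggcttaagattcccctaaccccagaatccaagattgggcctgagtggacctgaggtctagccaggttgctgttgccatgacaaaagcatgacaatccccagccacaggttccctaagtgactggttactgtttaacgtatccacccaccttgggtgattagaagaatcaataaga
Hnf4a downstream start, chr2:163546905-163547154: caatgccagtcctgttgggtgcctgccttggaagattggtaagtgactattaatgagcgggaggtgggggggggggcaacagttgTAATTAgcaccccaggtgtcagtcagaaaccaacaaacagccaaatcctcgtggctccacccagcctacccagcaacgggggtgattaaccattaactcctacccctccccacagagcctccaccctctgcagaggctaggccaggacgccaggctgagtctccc
Pdx1, chr5:147269847-147269958: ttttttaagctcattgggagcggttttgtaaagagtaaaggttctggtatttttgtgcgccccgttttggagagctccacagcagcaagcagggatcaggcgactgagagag
The motifs were searched on both strands in the whole 300-base windows. The homeodomain letters TAATTA were matched at −165 from the downstream Hnf4a start, and 5.29% of 32851 promoter windows held a match. The GATA letters AGATAA were matched at −52 from the upstream Hnf4a start, at the end of the printed stretch and beyond it, with a share of 11.2%. The Pdx1 window held none of these, nor FOXA letters TGTTTAC (3.65% of windows) nor HNF4 letters CAAAGTCCA (0.475%), which says only that these letters are not in this window. Windows of members that did not pass the test of the co-culture response over the 8 lines held matches too. These were the GATA letters at −183 in Foxa2 and the FOXA letters at −141 in Foxa1. Gene counts add reads from both Hnf4a starts and cannot say which was used.

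In mono-culture, Sox9, Pdx1, Foxa2 and Gata4 were well expressed in all lines and the other 4 members were lower or patchy. On the length-scaled scale of the authors' RPKM, which allows levels of different genes to be compared, the mean over the 8 lines was 43.6 for Sox9, 36.7 for Pdx1, 21.04 for Foxa2 and 14.1 for Gata4. Hnf4a (3.70), Insm1 (1.67), Gata6 (1.67) and Foxa1 (0.799) were lower, and the first 3 of these rested on a few lines. The median over lines was only 0.128 for Hnf4a and 0.0528 for Insm1. Sox9, Pdx1, Foxa2 and Gata4 had a mean of at least 11.5 RPKM in every line in mono-culture. Krt18 and Krt19, keratins of ducts, were high, at a mean RPKM of 825 and 256. So were Krt8 (376) and Spp1 (2527), and Cdh1 had 20.5, with line means from 0.998 CPM in M to 304 in V. Epcam, the usual surface marker of epithelium, did not pass 0.370 CPM in any line in mono-culture. Krt7, Cldn4, Cldn7 and Muc1 were low too, at a mean RPKM of at most 1.01. Vim, the mesenchymal filament protein, had a mean RPKM of 995.

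**Figure D1:**
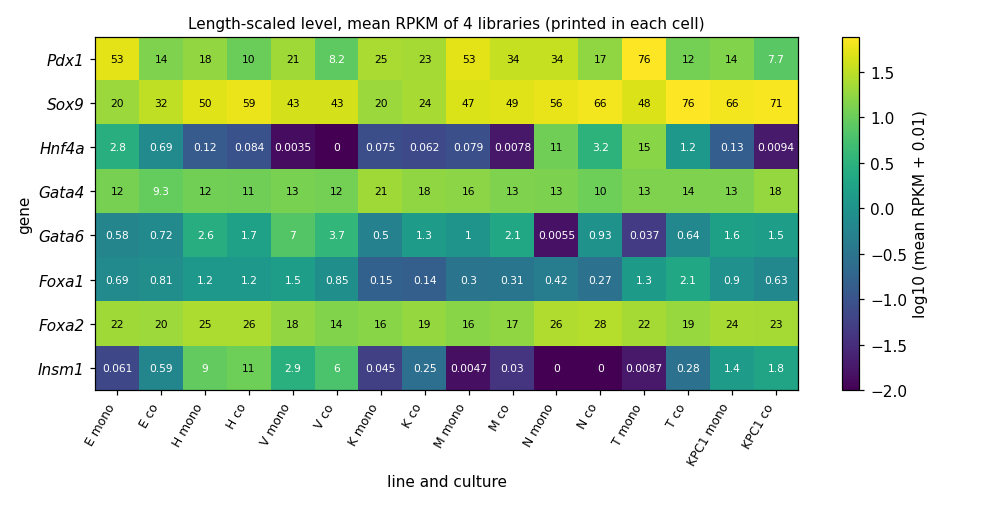
Mean RPKM of 4 libraries for each factor (rows) in each line and culture (columns); color is log10 of the mean RPKM + 0.01 and the RPKM is printed in each cell. Sox9, Pdx1, Foxa2 and Gata4 are present in all 16 columns, whereas Hnf4a, Gata6 and Insm1 run from near 0 to their highest in single lines.

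All 8 members differed between lines in mono-culture in edgeR's quasi-likelihood F-test, with adjusted p between 3.66e-29 for Hnf4a and 3.34516e-07 for Foxa2. That is no mark of these genes, since 95.1% of the 14134 genes tested did so. The sizes of the differences separated them. Foxa2 and Gata4 were the most even, with a ratio of the highest to the lowest line of 1.68 and 1.84, below the median ratio of 2.33 over all genes in the fit. Sox9 (3.31), Pdx1 (5.46) and Foxa1 (9.06) were above that median but below the 90th percentile of 21.1. Hnf4a, Gata6 and Insm1 were beyond it.

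Pdx1 (chr5:147269959-147275848, plus strand) was highest in clone T in mono-culture, at 191, 196, 204 and 210 CPM (counts scaled to library size with TMM factors). Clone M followed at 152, 162, 143 and 130 and clone E at 147, 127, 117 and 144. Clone T stood above every other library, and clones M and E overlapped each other.
Clone N divided into 2 pairs, with 113 and 139 CPM in replicates 1 and 2 and 50.6 and 50.1 in replicates 3 and 4. Clone K also split, at 48.4 and 50.9 CPM in replicates 1 and 3 and 89.2 and 91.2 in replicates 2 and 4. Below them came V (57.6 ± 6.30 CPM, SD, n = 4), H (51.4 ± 1.89) and KPC1 (36.5 ± 5.33), and only T and KPC1 were separate in their libraries from the neighboring line in this order.

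Pdx1 fell in co-culture. Over the 8 lines the log2 change was −1.23 ± 0.252 (SE, adjusted p = 0.00449 by edgeR's quasi-likelihood test on the summed counts of each line and culture), and the mean was lower in 8 of 8 lines. Of the 8 members, 4 passed this test (2 lower, 2 higher), when 52% of 16246 genes did so, 26.8% higher and 25.2% lower in co-culture, so the number of members called was near the background. With only the libraries of sample sheet A, which leaves out clone K, the change was −1.4997 (adjusted p = 0.00316).

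Within lines, Pdx1 fell in 7 of 8. Of 14134 genes tested within a line, the share called lower was 29.2% in E, 22.6% in H, 31.5% in V, 8.02% in K, 17.3% in M, 17.4% in N, 30.7% in T and 19% in KPC1, and the share called in either direction was 61.3%, 44%, 61.5%, 20.5%, 38.9%, 37.4%, 62.2% and 39.2%. The within-line tests and the test over lines use the same libraries. In clone T the co-culture libraries held 38.97, 22.1, 20.8 and 35.5 CPM, 6.89-fold less than in mono-culture (log2 change −2.77 ± 0.301, adjusted p = 7.73e-11). In clone E they held 32.2, 58.8, 21.4 and 20.4 CPM, 4.02-fold less (adjusted p = 1.04e-07), and in clone V 20.9, 24.6, 16.9 and 17.96 CPM, 2.91-fold less (adjusted p = 2.06e-05). No library overlapped between cultures in these 3 clones, and clone T went from the highest of the 8 lines to the fifth.
The fall was 1.94-fold in H (to 26.9 ± 8.93 CPM), 1.88-fold in KPC1 (to 19.8 ± 5.25), 2.05-fold in N and 1.64-fold in M. The pairs of clone N persisted in co-culture, with 54.7 and 61.4 CPM in replicates 1 and 2 and 30.9 and 26.8 in replicates 3 and 4. Replicates 1 and 2 and replicates 3 and 4 were therefore each lower than their counterparts in mono-culture, although the 2 cultures overlapped when pooled. Clone M divided likewise in co-culture, at 127 and 118 CPM in replicates 1 and 2 and 51.3 and 60.02 in replicates 3 and 4, and its call was lost without replicate 3 (adjusted p = 0.224) or without replicate 4 (0.163). The KPC1 call was lost without replicate 3 (adjusted p = 0.102). Clone K, at 55.4, 74.3, 61.4 and 61.7 CPM in co-culture, gave a log2 change of −0.15 ± 0.283 (adjusted p = 0.799), and its libraries overlapped those of mono-culture.

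The size of the Pdx1 change differed between lines (F-test on the interaction, adjusted p = 7.42e-06), as it did for 71.3% of all genes tested. In co-culture every neighboring pair of lines overlapped in its libraries. The spread between libraries was wider there in 6 lines, with a coefficient of variation that went from 4.24% to 31.5% in T, 10.6% to 53.9% in E and 9.27% to 43.6% in M. The ratio of the highest to the lowest line was 4.57, against 5.46 in mono-culture. M and K were then highest, at 89.0 ± 38.8 and 63.2 ± 7.93 CPM.

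The annotated neighborhood of Pdx1 holds Cdx2, the intestinal member of the same ParaHox gene cluster. Plut, a noncoding gene on the opposite strand, overlaps Pdx1 by 1563 bases. Plut held between 3.51 and 7.38 CPM in mono-culture, far below Pdx1, and fell by 0.57 on the log2 scale (SE 0.170, adjusted p = 0.0223). The libraries were strand-specific but the strand setting of the counting was not given in the sources used here, so reads in the overlap may be assigned to either gene or to neither.
Over the 16 means of a line and culture, the gene whose log2 CPM was most like that of Pdx1 was Gm27033, a noncoding gene that starts 4.872 kb after the end of Pdx1 on the same strand (Pearson r = 0.98). Aplp2 (r = 0.97) and Marveld1 (r = 0.96) came next. The line means of Gm27033 in mono-culture spanned 1.32 to 9.07 CPM. It fell by 1.48 on the log2 scale over the 8 lines (SE 0.328, adjusted p = 0.00623). Cdx2, 24.96 kb after Pdx1 on the other strand, had r = 0.63. Flt3, a receptor tyrosine kinase gene 54.9 kb after Pdx1, rose instead (log2 change 1.12, SE 0.257, adjusted p = 0.00735), with r = −0.50 and line means of at most 1.99 CPM in mono-culture. These r values are descriptions over 16 means that share lines and libraries.

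**Figure D2:**
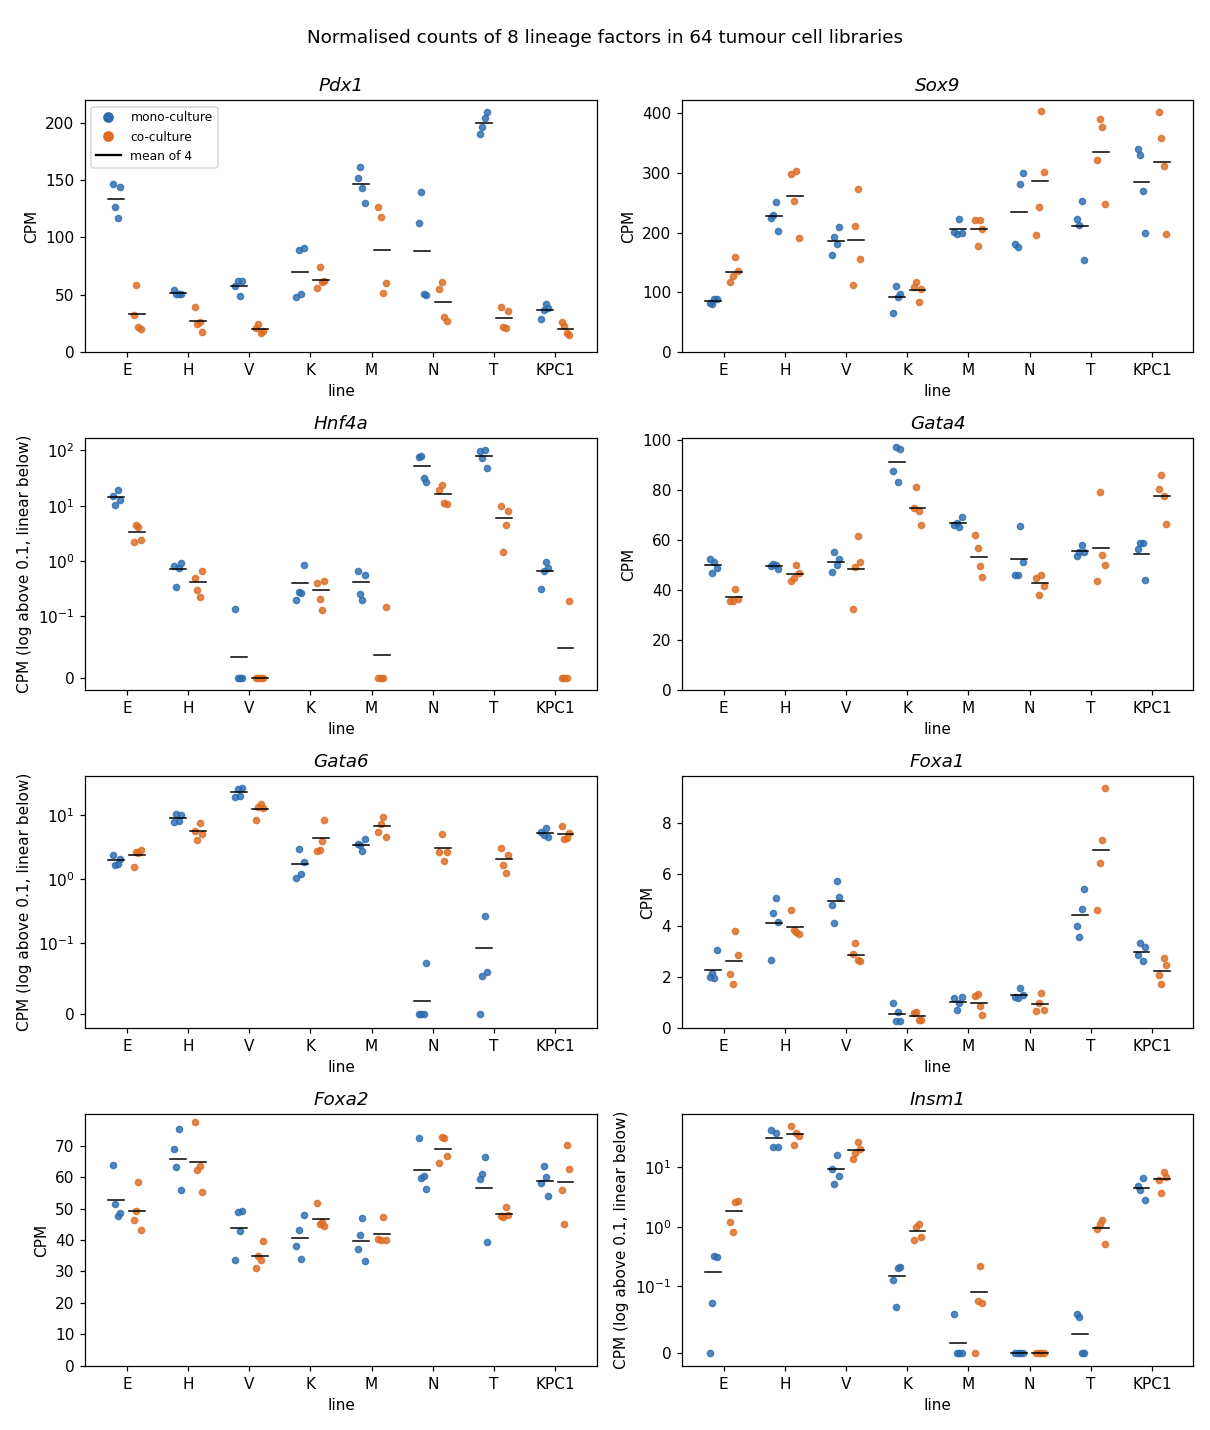
CPM of each factor in each of 64 libraries (points) by line, with mono-culture in blue, co-culture in orange and the mean of 4 libraries as a black line; the axes of Hnf4a, Gata6 and Insm1 are logarithmic above 0.1 CPM and linear below it. Pdx1 lies lower in co-culture with overlap in K and N alone, and in clones N and T Gata6 passes 1 CPM in co-culture and not in mono-culture.

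Hnf4a exceeded 1 CPM in 3 clones, T, N and E. Clone T held 98.3, 71.7, 103 and 48.2 CPM in mono-culture, clone N held 74.7, 78.8, 32.1 and 27.2, and clone E held 14.9, 10.1, 19.1 and 12.5. Every library of the other 5 lines was under 1 CPM. T and N overlapped, E was separate from both, and T was 5.46-fold above E. Clone V had 2 counts in its 4 libraries together, which put T 2614-fold above it with a counting interval of 723 to 21589 (95%, exact Clopper-Pearson, which covers counting error only).
Clone N had the same pairs of replicates for Hnf4a as for Pdx1.

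Hnf4a fell in co-culture, by 2.14 on the log2 scale over the 8 lines (SE 0.399, adjusted p = 0.00313), and was lower in 8 of 8 lines. With sheet A alone the change was −2.47 (adjusted p = 0.00314). In clone T the co-culture libraries held 9.97, 1.44, 4.56 and 8.14 CPM, 13.4-fold less (log2 change −3.74 ± 0.366, adjusted p = 8.32e-12). In clone E they held 2.24, 4.45, 4.12 and 2.44 CPM, 4.41-fold less (adjusted p = 4.7e-06), and in clone N 19.6, 23.3, 11.2 and 10.7 CPM, 3.32-fold less (adjusted p = 9.69e-05). The cultures did not overlap in any of these clones, and clone N took the first place in the order.
The test was also passed in 2 lines with little Hnf4a. KPC1 went from 45 counts in 4 libraries to 3 (13.1-fold, counting interval 4.20 to 65.9, adjusted p = 0.00812) and clone M from 27 to 2 (11.5-fold, 2.89 to 99.6, adjusted p = 0.0403). The call in M was lost without replicate 1 (adjusted p = 0.198). In H, V and K, all under 1 CPM, the changes did not pass, with adjusted p of 0.368, 0.429 and 0.817.

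The falls differed between lines (adjusted p = 0.00123). On the scale of log2(RPKM + 1), where genes near 0 can move little, limma gave a change over lines of −0.73 that missed the threshold (adjusted p = 0.108). Hnf4aos, the antisense gene that overlaps Hnf4a by 34913 bases, did not pass 0.0873 CPM in any line or culture. Myo15b (r = 0.94), Egr3 (0.93) and Rapgef4 (0.93) were most like Hnf4a over the 16 means. All 3 were highest in T or N.

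Gata6 gave the opposite layout of lines to Hnf4a. In mono-culture clone V held 19.01, 25.7, 19.5 and 26.7 CPM and clone H 7.87, 10.4, 8.06 and 9.84, whereas clone N had 1 count and clone T 6 counts in 4 libraries together. KPC1 (5.28 ± 0.696 CPM), M (3.44 ± 0.618), E (1.94 ± 0.330) and K (1.74 ± 0.839) stood between them. In this order E and K overlapped, and T and N, while every other neighboring pair was separate in its libraries. V was 261-fold above T, and 1218-fold above N with a counting interval of 218 to 48142. Across the 8 lines in mono-culture, the mean log2 CPM of Gata6 and Hnf4a had r = −0.89 and that of Gata6 and Insm1 r = 0.76. Both describe 8 points, and in co-culture they were −0.86 and 0.44. These pairs were picked from all pairs of the 8 members. In mono-culture Gata4 and Foxa1 had r = −0.82 and Pdx1 and Insm1 r = −0.76, and in co-culture −0.27 and −0.72. The near-0 values of Hnf4a in V and of Gata6 in N and T depend in part on the prior count.

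In co-culture Gata6 moved in opposite directions. It fell in V, to 8.29, 13.5, 14.9 and 13.03 CPM (1.83-fold, adjusted p = 0.00455), and in H, to 5.68, 4.12, 7.42 and 4.95 CPM (1.61-fold, adjusted p = 0.0408). The cultures did not overlap in either, but the call in H was lost without replicate 2 (adjusted p = 0.238) or without replicate 4 (0.173).
Shares of genes called higher within a line were 32.1% in E, 21.4% in H, 30% in V, 12.5% in K, 21.6% in M, 20% in N, 31.5% in T and 20.1% in KPC1. Gata6 rose in clone N, from 0, 0, 0 and 0.0713 CPM to 2.64, 4.97, 1.88 and 2.67 (156-fold, counting interval 27.7 to 6209, adjusted p = 9.3e-11). It rose in clone T, from at most 0.259 CPM to 3.06, 1.63, 1.23 and 2.33 (23.3-fold, adjusted p = 1.34e-09). It also rose 1.91-fold in M (to 6.60 ± 2.09 CPM, adjusted p = 0.011) and 2.62-fold in K (to 4.42 ± 2.60, adjusted p = 0.00149). The call in M was lost without replicate 3 (adjusted p = 0.171) and that in K without replicate 4 (0.156), whose 8.23 CPM stood above the 2.73, 2.78 and 3.93 CPM of the other co-culture libraries of K.
E (adjusted p = 0.506) and KPC1 (0.916) did not pass. The spread of Gata6 over lines narrowed to 6.12-fold between V and T in co-culture.

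The response of Gata6 differed between lines (adjusted p = 7.85e-13). Its change over the 8 lines was 0.95 ± 0.667 on the log2 scale (adjusted p = 0.27), while the mean CPM over lines was 5.54 in mono-culture and 5.19 in co-culture, so the fitted change and the mean CPM differ in sign. Taking the 64 libraries singly, with the line as a term, gave 0.68 (adjusted p = 0.011). That fit treats the 4 libraries of a line as independent, so its p-value does not measure the spread of the response between lines.
Fibroblast markers moved with the culture in every line. Of 18 such genes fixed as a list, 14 rose over the 8 lines, 0 fell and 2 of the 16 tested did not pass, and their summed level ran from 78.8 to 374 CPM over mono-culture libraries and from 316 to 2104 CPM over co-culture libraries. The defining markers Thy1, Dcn, Fap and Postn had line means of at most 0.0600 CPM in mono-culture, Thy1 being at 0 in all, and reached up to 16.1, 11.04, 3.28 and 73.5 CPM in co-culture. Pdpn was at most 0.0147 CPM in mono-culture and reached 7.33 CPM, and Col1a2 went from line means of 0.0231 to 3.50 CPM to between 123 and 229 CPM. Markers with almost no count in mono-culture, such as Thy1 and Pdpn, passed the filter only through co-culture, where they are high. Their calls among the 14 therefore give no support for a rise beyond the levels printed here. The 2 genes of the list most abundant in mono-culture, Twist1 (12.4 to 46.9 CPM) and Fbln1 (6.70 to 101 CPM), gave 0.25 (adjusted p = 0.201) and −0.35 (0.154). The part of these markers in the low levels of Gata6 and Insm1 that appeared in co-culture was not tested. In such bulk libraries, fewer cells with a transcript and less transcript per cell cannot be told apart.
Arhgap32 (r = 0.94), Ddah2 (0.89) and B4galt2 (0.87) were most like Gata6 over the 16 means.

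Insm1 (chr2:146221921-146225020, plus strand) was the other member with nearly an on or off pattern. Clone H held 42.1, 22.2, 37.4 and 21.6 CPM in mono-culture, clone V 9.30, 5.28, 16.1 and 7.17, and KPC1 4.80, 4.08, 6.49 and 2.80. Clone E (0.177 ± 0.164 CPM), K (0.152 ± 0.0660), T and M were near 0, and clone N had no count in any of its 8 libraries. H was separate from V, V overlapped KPC1, and H was at least 558-fold above N, taking a floor of 3 counts over the 4 libraries of N.

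Insm1 rose in co-culture over the 8 lines (log2 change 1.66 ± 0.492, adjusted p = 0.0237), and its mean was higher in 7 of 8 lines, N being at 0. With sheet A alone the change was 1.36 (adjusted p = 0.0807). Much of this came from lines with little Insm1. Clone E rose to 1.19, 0.822, 2.65 and 2.72 CPM (10.6-fold, adjusted p = 2.09e-06), clone T to 0.912, 1.11, 1.29 and 0.509 (33.2-fold, counting interval 8.79 to 280, adjusted p = 6.95e-06) and clone K to 0.600, 0.975, 1.11 and 0.681 (5.52-fold, adjusted p = 0.00884). No library overlapped between cultures in these 3 clones.
Where Insm1 was high already, V rose 2.12-fold to 13.6, 17.2, 26.9 and 19.8 CPM (adjusted p = 0.00321), with 1 mono-culture library, at 16.1 CPM, inside that range. H (35.6 ± 10.9 CPM in co-culture, adjusted p = 0.612) and KPC1 (6.27 ± 1.97, adjusted p = 0.267) did not pass. The response differed between lines (adjusted p = 5.92e-05). Mmp10 (r = 0.96), Tmx3 (0.94) and Ttc39c (0.93) were most like Insm1.

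Sox9 (chr11:112782224-112787760, plus strand) was high everywhere in mono-culture. KPC1 held 340, 329, 270 and 199 CPM, and N, H, T, M and V had means between 186 and 235 CPM. K (91.8 ± 19.1) and E (85.3 ± 4.46) were separate from these, their libraries overlapping each other only. In clone N, Sox9 divided the replicates the other way from Pdx1, at 181 and 175 CPM in replicates 1 and 2 against 282 and 300 in replicates 3 and 4, and in co-culture at 196 and 242 against 404 and 302.
Sox9 rose slightly over the 8 lines, by 0.29 on the log2 scale (SE 0.0862, adjusted p = 0.0215), with a higher mean in 8 of 8 lines. With sheet A alone the change was 0.43 (adjusted p = 0.0152). Within lines it rose in E, from between 81.0 and 89.3 CPM to 116, 127, 160 and 135 (1.57-fold, adjusted p = 0.00648), and in T, from 223, 212, 254 and 154 CPM to 322, 391, 377 and 248 (1.61-fold, adjusted p = 0.00511). The cultures were separate in E and overlapped in T by 1 library. In the other 6 lines adjusted p was between 0.303 and 0.991, and the test of a difference of the response between lines did not pass (adjusted p = 0.207). With the replicate number within a line as a block, it passed (adjusted p = 0.00328), as did the rise in clone N (log2 change 0.28, adjusted p = 0.0891). Akna had r = 0.96 with Sox9 over the 16 means, Arhgef3 0.95 and Dusp11 0.92.

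Gata4 (chr14:63198922-63271692, minus strand) was the steadier of the GATA factors. K held 87.5, 97.2, 83.2 and 96.2 CPM in mono-culture and M 66.0, 66.6, 65.3 and 69.0, each separate from the next line. The other 6 lines, with means between 49.6 and 55.4 CPM, overlapped their neighbors in the order. Over the 8 lines Gata4 gave a change of −0.11 ± 0.0987 (adjusted p = 0.396), but lines differed (adjusted p = 0.000272).
It fell in E, to 35.7, 35.4, 40.5 and 36.2 CPM (1.36-fold, adjusted p = 0.00398). It rose in KPC1, from 56.5, 58.6, 58.8 and 43.8 CPM to 80.5, 85.8, 77.4 and 66.5 (1.41-fold, adjusted p = 0.00175). Both changes separated the cultures.
Falls of 1.25-fold in K (adjusted p = 0.0733) and in M (0.043) and of 1.21-fold in N (0.0776) were called but were lost on leaving out a replicate. K lost its call without replicate 3 (adjusted p = 0.129) or 4 (0.362), M without 3 (0.141) or 4 (0.311), and N without 2 (0.149), 3 (0.353) or 4 (0.187). Without KPC1, the change over the 7 clones was −0.20 and was called (adjusted p = 0.0568). Slc38a7 (r = 0.91), Top2b (0.85) and Sepw1 (0.83) were most like Gata4.

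Foxa2 (chr2:148042877-148046969, minus strand) had the smallest average change of the 8 members. Its line means were between 39.8 (M) and 65.8 CPM (H) in mono-culture and between 34.8 (V) and 69.0 CPM (N) in co-culture, and every neighboring pair of lines in the mono-culture order overlapped. Over the 8 lines its change was −0.02 ± 0.0686 (adjusted p = 0.871), which became 0.01 without clone V. Only V was called, from 33.7, 49.002, 42.9 and 49.1 CPM to 31.2, 34.8, 33.6 and 39.6 (1.26-fold lower, adjusted p = 0.0318), with overlapping cultures. This call was lost without replicate 2 (adjusted p = 0.24).
Foxa1 (chr12:57540628-57546916, minus strand) was much lower in every line, on the RPKM scale between 0.149 and 1.45 in mono-culture against 15.6 to 25.9 for Foxa2. It moved in opposite directions in 2 clones with like levels. In V it fell from 4.82, 4.10, 5.74 and 5.10 CPM to 2.88, 3.31, 2.65 and 2.61 (1.72-fold, adjusted p = 0.00423), without overlap. In T it rose from 3.97, 3.55, 4.65 and 5.45 CPM to 4.63, 6.46, 7.33 and 9.37 (1.57-fold, adjusted p = 0.0123), with overlap. The response of Foxa1 differed between lines (adjusted p = 0.00895) and that of Foxa2 did not pass (adjusted p = 0.124). Cul4a (r = 0.87), Pik3r2 (0.87) and Fam84b (0.86) were most like Foxa1, and Kpna6 (0.91), Ptgr1 (0.91) and Gng10 (0.90) most like Foxa2.

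**Figure D3:**
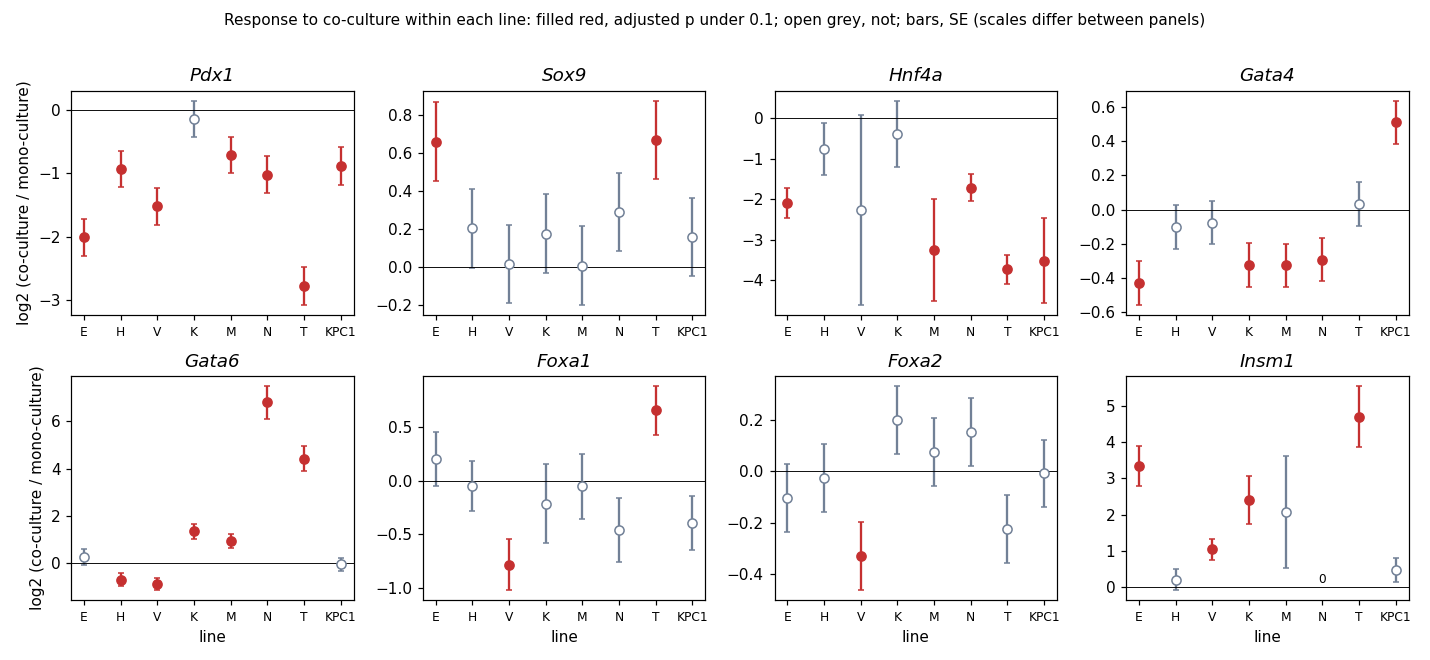
Log2 change of each factor between co-culture and mono-culture (points) with its SE (bars) in each line; filled red points had an adjusted p under 0.1 in edgeR's quasi-likelihood test and open grey points did not, and the vertical scales differ between panels. Pdx1 and Hnf4a lie below 0 in every line drawn, Gata6 lies on both sides of 0, and Insm1 in clone N had no count in either culture.

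Taking lines in turn, 32 of the 64 pairs of a member and a line were called, 20 lower and 12 higher in co-culture. Clone T moved most members (6 of 8), with Sox9, Gata6, Foxa1 and Insm1 higher and Pdx1 and Hnf4a lower, and clone H moved 2, Pdx1 and Gata6, both lower. E and V each had 5 members called, M and N had 4, and K and KPC1 had 3. The shares of all genes called, given above, ran from 20.5% in K to 62.2% in T.

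The study's metabolic groups were compared in mono-culture as 3 clone sums against 4. No gene of 14829 was called by edgeR's quasi-likelihood test (background 0%), and 766 genes, 5.17%, had an unadjusted p under 0.05. Insm1 was the only member among the latter (log2 difference 8.06 ± 1.81 higher in group 1, unadjusted p = 0.00262, adjusted p = 0.888). For Insm1, E, at 0.177 CPM, was next to K, at 0.152 CPM, so the difference rested on H and V. DESeq2, the tool of the study's methods, called 117 genes, Insm1 among them (adjusted p = 1.21e-05), and edgeR without clone E called 217, again with Insm1 (0.0569). Insm1 had 12, 1979 and 609 counts in E, H and V, and 9, 1, 0 and 2 in K, M, N and T. It thus passed the filter mainly through group 1, where it is high, and these p-values give no support for a group difference.
Gata4 had means of 50.1 ± 0.835 CPM (SD over 3 clones) in group 1 and 66.3 ± 17.6 (4 clones) in group 2 (log2 difference −0.39 ± 0.218, adjusted p = 0.888). Its closest clones across the groups, V (51.1 CPM) and N (52.2 CPM), overlapped in their libraries. For Gata6 the means were 11.2 ± 10.6 and 1.32 ± 1.62 CPM and for Pdx1 80.9 ± 45.8 and 126 ± 59.2, and neither passed (adjusted p = 0.888 and 0.897). Hnf4a crossed the groups, since E of group 1 stood with N and T of group 2.

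The other factors of the pancreas and its neighboring organs were taken from lists, over the 8 lines. Counts in these lists stand beside 25.2% of all 16246 genes called lower, 26.8% called higher and 52% in either direction. The lists were chosen with earlier results of these data known, so an excess over these shares is a description and no independent support. Of 13 duct and liver factors, 10 were tested, 6 fell, 0 rose and 4 did not pass, with a median log2 change of −0.69 against 0.01 over all genes tested. Onecut2, a duct and endocrine progenitor factor, fell by 1.63 on the log2 scale (SE 0.217, adjusted p = 0.001) and in 7 of 8 lines; its line means in mono-culture ran from 8.53 to 222 CPM, the highest in T. Grhl2, which maintains epithelial junctions, fell by 1.83 (adjusted p = 0.0029), and Hes1, the Notch target, by 0.64 (0.0391). Klf5, a factor of epithelial progenitors, gave −0.21 (adjusted p = 0.552), with 3 lines higher and 5 lower.
Of 8 gut and stomach factors 3 were tested and 2 fell, when 25.2% of all genes did. Cdx2 fell by 1.08 (SE 0.214, adjusted p = 0.00402) and in 5 lines. Its mono-culture mean was 215 CPM in M, 154 in E, 126 in K, 120 in T and 97.6 in N, but 16.98 in KPC1, 6.24 in H and 0.370 in V. KPC1, H and V, the lines with the least Cdx2, were those with the most Insm1, but in another order. V had the least Cdx2, whereas Insm1 was highest in H (30.8 CPM, against 9.46 in V). A link between Cdx2 and Insm1 was not tested. Isx, an intestinal homeobox gene, fell by 2.47 (adjusted p = 0.0197), from at most 11.1 CPM in M.

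Factors and products of mature pancreatic cells were mostly near 0. Of 14 endocrine factors, 12 were under 1 CPM in every line and culture and 5 had no count at all, among them Neurog3 and Neurod1, the factors that act with Insm1 in endocrine progenitors. Of the 4 tested, Isl1 and St18 rose (log2 change 1.90, adjusted p = 0.0304, and 1.40, 0.0099) and Mafa fell by 0.67 (0.0812); none had a line mean above 1.10 CPM in mono-culture. Of 17 endocrine products, 15 stayed under 1 CPM, including both insulin genes. Of the 3 tested, Syp and Scg5, genes of vesicles and peptide processing, rose by log2 changes of 0.82 and 0.85 (adjusted p = 0.0341 and 0.0773).
Of 4 acinar factors, only Bhlha15, which drives secretory cell maturation, was tested and it fell by 1.16 (adjusted p = 0.0589), with its highest mono-culture mean, 4.02 CPM, in T. Nr5a2 did not pass 0.0957 CPM in any line. Of 13 acinar products in the count table, 11 stayed under 1 CPM. Of the 2 tested, Cela1, an elastase, fell by 0.52 (adjusted p = 0.0889) from line means of 1.32 to 16.8 CPM, and Prss2 gave 0.08 (0.776).

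Among 9 cofactors and relatives in the count table, 5 were tested, 2 rose, 1 fell and 2 did not pass. Zfpm2, the partner protein of GATA factors, rose by a log2 change of 0.82 (SE 0.138, adjusted p = 0.0022) and in 6 lines, and its relative Zfpm1 gave 0.06 (adjusted p = 0.776). Sox4 fell by 0.38 (adjusted p = 0.0182) and in 5 lines.
Genes of the classical tumor subtype, with which GATA6 and HNF4A are associated in human tumors, divided as 4 lower, 1 higher and 3 not called of 8 tested, beside the background of 25.2% lower and 26.8% higher, which holds for the lists that follow too. Lgals4 fell by 1.74 (adjusted p = 0.0154) and Muc13 by 2.69 (0.0144), each highest in N in mono-culture, at 164 and 11.6 CPM. Cldn18 rose by a log2 change of 1.41 (adjusted p = 0.0037) to at most 1.81 CPM, and Cdh17 gave −0.62 (0.166). Of 8 basal-like genes tested, 2 rose, Gli2 and Slc2a1, and 6 did not pass. Gli2, a mediator of Hedgehog signals that fibroblasts also express, had no count in mono-culture and reached 1.43 CPM. It passed the filter through co-culture alone, so its call gives no support for a rise. Slc2a1, the glucose transporter, rose by a log2 change of 0.38 (adjusted p = 0.0283). Vim gave 0.16 (adjusted p = 0.22). Of 10 epithelial markers, 1 rose, 3 fell and 6 did not pass. Krt19 fell by 0.68 (adjusted p = 0.00246) and in 6 lines, Spp1 rose by a log2 change of 0.79 (0.0749) and Krt18 gave 0.04 (0.765). Of 8 leukocyte and endothelial markers 2 were tested, of which Kdr rose (1.16, adjusted p = 0.0552) and Pecam1 fell by 1.06 (0.0428), with means of at most 7.62 CPM.

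**Figure D4:**
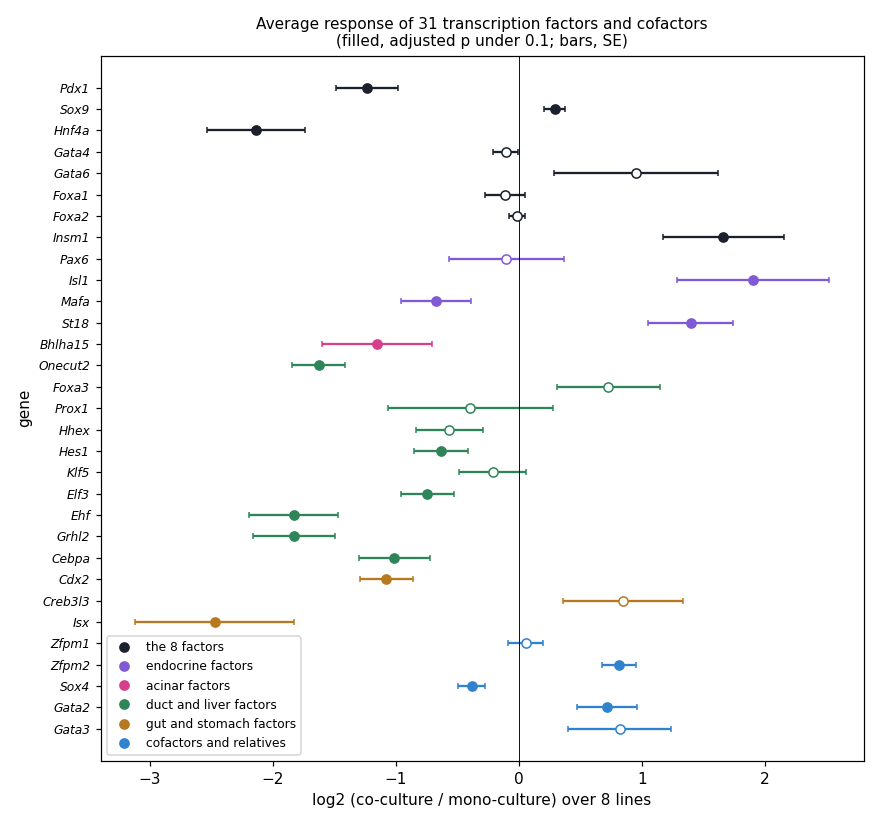
Average log2 change over the 8 lines (horizontal axis, with SE bars) of 31 tested transcription factors and cofactors, colored by list; filled points (19) had an adjusted p under 0.1. Most duct and liver factors lie left of 0, beside Pdx1 and Hnf4a.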

How the data were processed

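The authors deposited whole-number counts per gene for 39017 genes, without normalization, and RPKM values for 49585 genes, which divide counts by gene length and library total. Per the labels, the notes name featureCounts, edgeR and mm10; the aligner, annotation, versions and strand setting were not given in the sources used here. Library totals ran from 11178721 to 21333683 counts (median 15648010). Counts were analysed with edgeR 4.0.16 in R 4.3.3 (filterByExpr, TMM, quasi-likelihood tests, Benjamini-Hochberg adjustment, threshold 0.1 as in the study). The average response and the groups were tested on sums of 4 libraries, with the line as a covariate for the response, and responses within lines, their differences and the line differences on 64 libraries with 16 coefficients. All 8 members passed each filter. CPM is TMM-scaled, and log2 CPM used a prior count of 0.5. Positions come from GENCODE M21 and promoters from RefSeq (GRCm38.p6). Alternatives used DESeq2 1.42.0, limma 3.58.1 on log2 RPKM, RLE factors, other filters, a replicate block, sample sheets (inferred from label numbers; 43 and 21 libraries) and left-out replicates or clones. The steps were tested on simulated data. Named genes were all 8 members, of each list the 2 highest in mono-culture and the 2 with the smallest p, the 3 genes most like each member over 16 means, and overlapping antisense genes. Neurog3, Neurod1, Thy1, Dcn, Fap, Col1a2, Flt3, Krt7, Krt8, Cdh1, Cldn4, Cldn7 and Muc1 were named after their values were seen. The members and lists were chosen with earlier results of these data known. Gata6's position and promoter and some other items are not reported here.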

Additional observations from a re-analysis of the deposited data

Results flagged for a closer look

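The response to co-culture differed between lines for 6 members in the interaction F-test over 8 lines (edgeR, 71.3% of all genes tested passed). Adjusted p was 7.42e-06 for Pdx1, 0.00123 for Hnf4a, 0.000272 for Gata4, 7.85e-13 for Gata6, 0.00895 for Foxa1 and 5.92e-05 for Insm1. For Gata6 and Foxa1 and for Gata4 the lines called lay in both directions, and for Pdx1, Hnf4a and Insm1 they differed in size only.

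Single libraries stood apart from the other 3 of their line and culture in 7 of 103 groups examined (Dixon's criterion on CPM, in groups with a mean of at least 1 CPM), when chance gives about 5.15. These were Pdx1 in replicate 1 of clone H in mono-culture (54.2 CPM), Sox9 in replicate 3 of M in mono-culture (223 CPM), Gata4 in replicate 3 of E in co-culture (40.5 CPM), Foxa1 in replicate 1 of H in co-culture (4.59 CPM), Foxa2 in replicate 1 of K in co-culture (51.7 CPM) and in replicate 3 of M in co-culture (47.2 CPM), all above the others, and Gata4 in replicate 4 of KPC1 in mono-culture (43.8 CPM), below them.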

How the results depend on the processing

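Of the members, 4 to 6 were called for the average response under the alternatives (3 with limma on log2(RPKM + 1)), 6 to 8 for the differences between responses, 8 in each case for the line differences and 26 to 34 of 64 within lines; within lines, no called member changed direction under any alternative run. Between the metabolic groups, 0 members were called, but 1 with DESeq2 or without clone E, 5 with single libraries and 6 with a replicate block on single libraries; the numbers of genes were 117, 217, 3925 and 3956, 2 with sheet A alone and 1 without a filter, without clone M or in the co-culture libraries. Single libraries treat the 4 replicates of a clone as independent. Insm1 could not be fitted between groups with sheet A alone, with single libraries or without replicate 2, 3 or 4, where the filter removed it. Values near 0 turned: Foxa2 over lines ranged from −0.0499 to 0.00892 without 1 replicate and was 0.0135 without clone V and 0.00337 without clone T, Foxa2 between groups was −0.0128 without clone H and −0.0427 in the co-culture libraries, and Sox9 between groups was 0.168 without clone E. The cause was not tested. Replicate numbers were shared between cultures, and 23 of 32 same-number pairs deviated together (r over 0.1, median 0.296), all 4 of them in M, N and V but not in every line, so the numbers were not taken as pairs over the 8 lines. With the replicate block on 64 libraries, the responses of Sox9 (adjusted p = 0.00328) and Foxa2 (0.0939) differed between lines. Over lines the block was fitted on single libraries, which without it already called Gata4 (−0.12, adjusted p = 0.0473) and Gata6 (0.68, 0.011), and with it gave −0.13 (0.0566) and 0.68 (0.0515). On log2(RPKM + 1), limma did not call Hnf4a in KPC1 (adjusted p = 0.577) or M (0.761), nor Insm1 in K (0.372). Sheet B alone was not fitted, since E, V and N had no mono-culture library there. Counting error was small for Pdx1, Sox9, Gata4 and Foxa2, and limits Hnf4a, Insm1, Gata6 and Foxa1 under 1 CPM.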

Other observations

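The replicates of clone N divided for several members at once. Replicates 1 and 2 were above replicates 3 and 4 for Pdx1 and Hnf4a and below them for Sox9 in both cultures, while Foxa2 (72.3, 59.6, 60.5 and 56.2 CPM in mono-culture) did not divide so. All 4 mono-culture libraries of N were on sample sheet A, as inferred from label numbers, and in co-culture only replicate 1 was on sheet B. The division was seen after looking at the values and was not tested.

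In clone T, Cdx2 went from a mean of 120 to 23.3 CPM, beside the falls of Hnf4a from 80.2 to 6.03 and of Pdx1 from 200.3 to 29.3. In clone K, where the Pdx1 change was not called, Cdx2 had means of 126 and 89.4 CPM.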
